A study of Rattus norvegicus with 12 samples.

Results

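The genes described here encode corticotropin-releasing hormone (CRH) and melanocortin signalling: Crh, Crhr1, Crhr2, Crhbp, Pomc, Mc3r and Mc4r. They were chosen by name, as the 7 genes whose symbol a non-control probe carried, and 9 probes (18 spots) carried 1 of them, out of 30367 probes for 26214 genes. All 12 samples were used. Each sample was total RNA from the prefrontal cortex of a female Sprague-Dawley rat, taken on postnatal day 15, although 1 label field gives another age.

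Control pups came from dams given 2 saline injections on gestational day 15, and received saline on postnatal day 14 (n = 4). Betamethasone pups came from dams given 2 injections of betamethasone, a synthetic glucocorticoid, at 0.4 mg/kg on that day, and received saline on postnatal day 14 (n = 4). The third group had the same prenatal betamethasone and received ketamine, an NMDA receptor antagonist, at 35 mg/kg on postnatal day 14 (n = 4). Infantile spasms are named in the protocol for postnatal day 14, but no sample label says which animals showed them. Litter was not given in the sources used here, so the p-values measure the spread between these animals only. No group received ketamine without betamethasone.

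RNA was read on 6 Agilent 2-colour arrays, with 2 animals of 1 group per array, replicates 1 and 2 on one and 3 and 4 on the other, and the odd-numbered animal in Cy3. The control arrays lay on 1 slide and the other 4 arrays on another, so in a comparison with control the slide and the exposure cannot be told apart. Between 71.4% and 81.5% of the spots were well above background in each sample and none was saturated. Values are log2 normalised intensities. They order the samples for 1 probe and do not order different probes. Each group had 2 arrays, and the 95% intervals of the members' changes reached 0.26 to 0.48 to each side.

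CRH is a peptide that starts the hormonal stress response in the hypothalamus and is also made by inhibitory interneurons of the cortex. It acts through 2 G protein-coupled receptors and is held by a secreted binding protein. The prohormone encoded by Pomc is cut into ACTH, the melanocortins and beta-endorphin. Melanocortins act in the brain through Mc3r and Mc4r, ACTH acts on the adrenal cortex through Mc2r, and both receptor families couple mainly to Gs and cyclic AMP. ACTH is a treatment for infantile spasms, and CRH excites immature neurons.

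The probes are 60 bases long, and their coordinates in the files are on the rn4 build. Exon and UTR limits on that build were not used here. Sequences of 7 probes are shown, because the paired probes of Crh and of Crhr2 gave different results, and because Pomc and its receptors differed in whether a signal was detected. They are written 5′ to 3′ from the array files, whole for Pomc, Mc3r, Mc4r and 1 Crhr2 probe, and as the first 30 bases for the other 3. Capitals mark the longest run that the Mc3r and Mc4r probes share, of 8 bases.
Crh, 1-spot probe: gggtggctaggacaaaatgtgtaagctctt
Crh, 10-spot probe: gcatgcacaaagtgtgtttctttgtagtaa
Crhr2, tested probe: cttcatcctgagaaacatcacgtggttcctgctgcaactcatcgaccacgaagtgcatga
Crhr2, other probe: gatgaactctcctgccggaaggaaaggaaa
Pomc: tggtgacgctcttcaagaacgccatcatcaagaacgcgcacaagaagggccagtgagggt
Mc3r: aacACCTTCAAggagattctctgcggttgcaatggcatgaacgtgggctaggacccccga
Mc4r: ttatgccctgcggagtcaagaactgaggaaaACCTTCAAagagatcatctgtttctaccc
Probes of different members shared runs of at most 9 bases. The Crh probes lay at chr2:104764051-104764110 (A_64_P116972, 1 spot) and chr2:104764253-104764312 (A_43_P12478, 10 spots), both on the minus strand, with starts 202 bases apart. The Crhr2 probes lay at chr4:83851526-83851585 (A_64_P079538) and chr4:83839822-83839859 (A_64_P079543), both minus, and the second had 38 genome bases for its 60-base sequence. The Pomc probe (A_64_P076450) lay at chr6:26937625-26937684 and the Mc3r probe (A_64_P026795) at chr3:163159796-163159855, both plus. The Mc4r probe (A_64_P154212) lay at chr18:63391440-63391499, minus. Crhr1 was read by A_64_P012770 at chr10:93353354-93353413, plus, and Crhbp by A_44_P104054 at chr2:25802015-25802074, minus.

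Transcripts of the peptides Crh and Pomc, of the binding protein Crhbp and of the receptor Mc4r were detected in every animal. Their 5 probes were well above background in all 12 samples. The CRH receptor Crhr1 was well above background in 11 of 12, all but 1 betamethasone animal. For the second CRH receptor, Crhr2, the tested probe was well above background in 2 control, 0 betamethasone and 3 ketamine animals. The local background of that probe differed by slide in Cy3, at 16 and 17 in control animals and 57.5 to 69 in the other groups. In Cy5 it was 33 and 34 in control animals and 32.5 to 42 in the other groups. How far the background moved the detection counts was not tested. The other Crhr2 probe passed in 1 ketamine animal only. Mc3r was well above background in 0 of 12 samples. In 4 of 12, all of them ketamine animals, its signal was positive and significant by the scanner software's own test. The ratio of its signal to local background was 0.98 to 1.37 in those animals. In control animals, none of which had that flag, the ratio was higher, at 1.71 to 2.29. How far the slide and its background moved the flag was not tested.

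Over the 12 samples, the median ratio of spot signal to local background gave the same division between probes. This median was 43.9 and 21.4 for the 1-spot and 10-spot Crh probes, 24.8 for Pomc and 19.8 for Crhbp. It was 5.67 for Mc4r and 3.55 for Crhr1. It was 1.82 and 1.63 for the tested and the other Crhr2 probe, and 1.37 for Mc3r. Single samples did not always follow the ratio. For the tested Crhr2 probe, control 3 and 4 had 3.59 and 2.56 and were not well above background. Ketamine 1 and 4 had 1.40 and 1.79 and were. The filter used the calls of well above background, by which a test could be made for 6 of the 7 genes, and not for Mc3r. Crhr2 entered the test only through the ketamine group, the one group in which 3 animals passed.

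**Figure D1:**
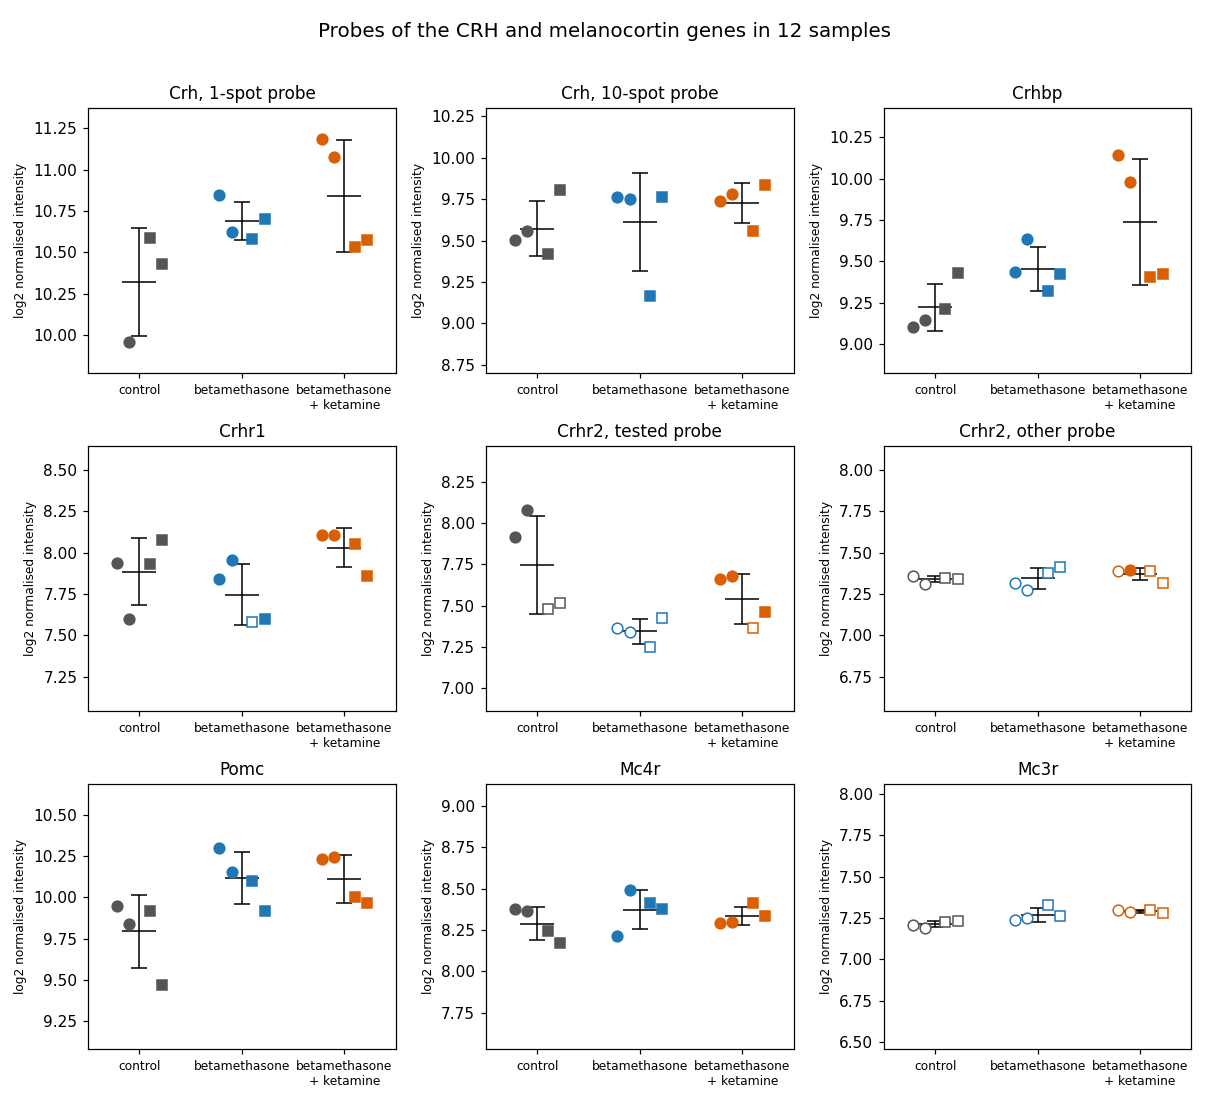
Log2 normalised intensity (y axis, of the same height in every panel) of each of the 9 probes in the 12 samples, by group (x axis). Circles are replicates 1 and 2, which shared an array, and squares are replicates 3 and 4. Filled points were well above background, open points were not, and bars give the group mean and SD. Only Crhr1, Crhr2 and Mc3r have open points, and in Crhbp the ketamine circles lie above all other samples.

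None of the 6 tested genes passed the threshold in any of the 3 comparisons (limma, Benjamini-Hochberg adjusted p under 0.05 over 18679 genes). Over all genes, 0.246% were called for betamethasone minus control (46 genes), 0.091% for betamethasone with ketamine minus control (17 genes) and 0% for ketamine minus saline after betamethasone. In that last comparison 605 genes had an unadjusted p under 0.05, and none of them was a member. The unadjusted p was under 0.05 for 1 member, Crhr2, against control after betamethasone alone, and for 2 members, Crh and Crhbp, after betamethasone with ketamine. Over all 18679 genes it was under 0.05 for 2174 and 2632 genes in those comparisons. Both comparisons with control share the same 4 control animals.

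The median log2 change of the 6 genes was 0.16 for betamethasone minus control, beside 0.03 for all tested genes. It was 0.23 beside 0.07 for betamethasone with ketamine minus control, and 0.17 beside 0.05 for ketamine minus saline. Estimates were above 0 for 4, 5 and 4 of the 6 genes in that order. These medians and counts include Crhr2, which entered the test only through the ketamine group. Nothing is therefore read from its direction for ketamine minus saline. Groups did not overlap for 1 of 6 tested genes in betamethasone against control (Crhr2) and 1 of 6 in betamethasone with ketamine against control (Pomc). The share of all genes without overlap was 18% and 15.8% there, and 4.07% for ketamine against saline, where no tested member was free of overlap.

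Crh, the CRH peptide itself, was tested by its 1-spot probe. In control animals 2, 3 and 4 its log2 intensity was 9.96, 10.58 and 10.43 (10.32 ± 0.33 SD, n = 3), and the spot of control 1 was left out as an outlier. The 4 betamethasone animals had 10.84, 10.62, 10.58 and 10.70 (10.69 ± 0.12 SD). The 4 ketamine animals had 11.18, 11.07, 10.53 and 10.57 (10.84 ± 0.34 SD). Control 2 was the lowest sample and ketamine 1 and 2 were the highest. Betamethasone 1, 2 and 4 were above the 3 controls with a value. Betamethasone 3, at 10.5827, was just below control 3, the highest control at 10.5835, and ketamine 3 and 4 were also below it. The estimated change was 0.40 (SE 0.22, 95% interval −0.08 to 0.89) for betamethasone minus control, with limma adjusted p = 0.502. It was 0.56 (SE 0.22, interval 0.07 to 1.04, limma adjusted p = 0.324) for betamethasone with ketamine minus control, and 0.15 (SE 0.21, interval −0.31 to 0.61, limma adjusted p = 0.923) for ketamine minus saline. Without control 2 the changes against control were 0.18 for betamethasone and 0.33 for betamethasone with ketamine, and neither passed the threshold. Without the array of control 3 and 4 they were 0.71 and 0.86, and control 2, the lowest sample, was then the only control value left.

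The 10-spot probe of Crh gave smaller estimates. The control animals had 9.50, 9.56, 9.42 and 9.81 (9.57 ± 0.17 SD, n = 4), and the betamethasone animals 9.76, 9.75, 9.17 and 9.76 (9.61 ± 0.30 SD, n = 4). The ketamine animals had 9.74, 9.78, 9.56 and 9.83 (9.73 ± 0.12 SD, n = 4). The groups overlapped throughout, and betamethasone 3 was the lowest of all 12. With every probe tested on its own, the changes were 0.04 for betamethasone minus control (SE 0.18, limma adjusted p = 0.961), 0.16 for betamethasone with ketamine minus control (adjusted p = 0.699) and 0.12 for ketamine minus saline (adjusted p = 0.937). They were smaller than those of the 1-spot probe in all 3 comparisons. That difference between the probes was not tested.

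The 10 repeat spots describe the spread of this probe within a sample. The animals of an array were read from the same spots, and low spots could be shared. Spot 9 was the lowest in betamethasone 3 (7.26) and betamethasone 4 (8.39), and spot 4 in control 1 (8.62) and control 2 (8.69). An SE over spots takes them as independent, so it is given as a description and not as the error of a reading. Their SD within a sample ran from 0.06 in control 4 to 0.88 in betamethasone 3, with a median of 0.28, and the SE of their mean had a median of 0.09. The median SD between animals of a group was 0.17 for the same probe. In betamethasone 3 the spots spread from 7.26 to 9.85, and the highest of them lay within the range of the other samples. With the median of the spots in place of the mean, an alternative chosen after the values were seen, the changes were 0.08, 0.13 and 0.05 in the order above, again with no call.

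**Figure D2:**
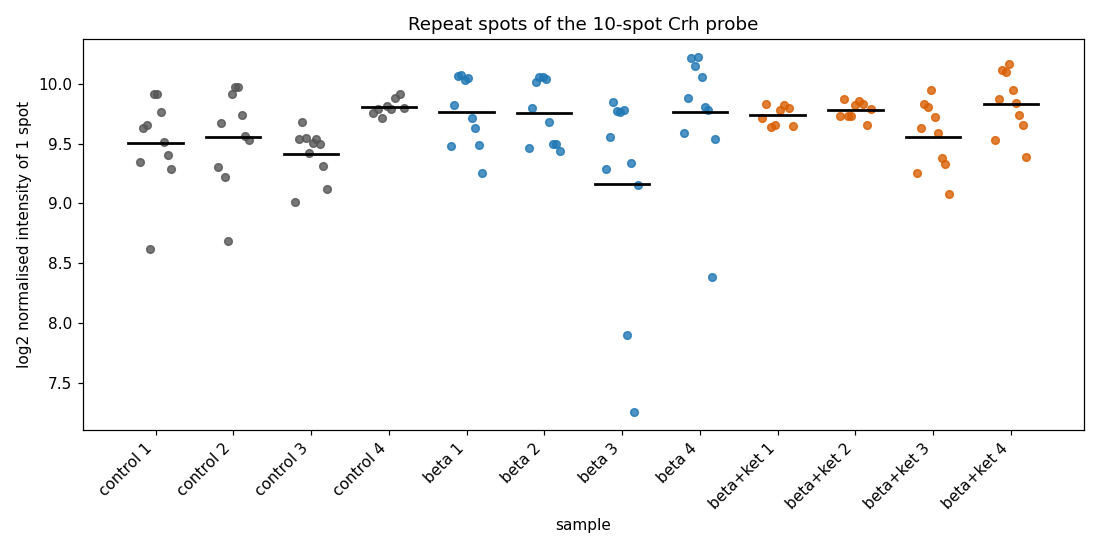
Log2 normalised intensity (y axis) of the repeat spots of the 10-spot Crh probe in each of the 12 samples (x axis), after outlier spots were left out, with the mean as a bar. In betamethasone 3 the spots run from 7.26 to 9.85, while in control 4 the 8 spots kept lie between 9.71 and 9.91.

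Pomc, the precursor of ACTH and the melanocortins, had log2 intensities of 9.95, 9.84, 9.92 and 9.47 in control animals (9.79 ± 0.22 SD, n = 4). Betamethasone animals had 10.30, 10.16, 10.10 and 9.92 (10.12 ± 0.16 SD, n = 4), and ketamine animals 10.23, 10.24, 9.999 and 9.97 (10.11 ± 0.15 SD, n = 4). Every ketamine animal was above every control, and 3 of 4 betamethasone animals were. The change was 0.32 (SE 0.15, interval −0.01 to 0.66, limma adjusted p = 0.440) for betamethasone minus control. It was 0.32 (interval −0.02 to 0.65, limma adjusted p = 0.374) for betamethasone with ketamine minus control. Between ketamine and saline after betamethasone it was −0.01 (interval −0.34 to 0.32, limma adjusted p = 0.997). The estimates put Pomc at 1.25-fold and 1.24-fold the control mean in the exposed groups, and neither passed the test. Under other scalings the value for betamethasone with ketamine minus control was 0.10 with processed signals, 0.30 with the 75th percentile and 0.17 with array medians, where the medians over all genes were 0.09, 0.15 and 0.02. In the deposited value table, where the median over all genes was −0.51 for betamethasone minus control and −0.43 for betamethasone with ketamine minus control, the Pomc estimates were −0.24 and −0.21, which is above those medians by 0.27 and 0.22.

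Crhbp encodes the protein that binds CRH outside cells. Control animals had 9.11, 9.15, 9.21 and 9.43 (9.22 ± 0.14 SD, n = 4) and betamethasone animals 9.43, 9.64, 9.32 and 9.42 (9.45 ± 0.13 SD, n = 4). Ketamine animals had 10.15, 9.98, 9.40 and 9.42 (9.74 ± 0.38 SD, n = 4). The ketamine group split by array: animals 1 and 2, on one array, were above all other samples, and animals 3 and 4 lay within the range of the betamethasone animals. The change was 0.23 (SE 0.19, interval −0.19 to 0.64, limma adjusted p = 0.692) for betamethasone minus control and 0.52 (interval 0.10 to 0.93, limma adjusted p = 0.308) for betamethasone with ketamine minus control. It was 0.29 (interval −0.13 to 0.70, limma adjusted p = 0.906) for ketamine minus saline, and 0.17 there without ketamine 1.

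What the ketamine group showed for Crhbp and Crh depended on 1 array. Without the array of ketamine 3 and 4, the Crhbp change was 0.61 for ketamine minus saline (limma adjusted p = 0.0208) and 0.84 for betamethasone with ketamine minus control (adjusted p = 0.00425). The Crh change was then 0.81 for betamethasone with ketamine minus control (adjusted p = 0.0262). The ketamine group rested there on animals 1 and 2 alone, which shared an array, so the group and that array cannot be told apart. That fit called 2291 genes for ketamine minus saline and 3101 for betamethasone with ketamine minus control, so members were called there together with many other genes. Without the array of ketamine 1 and 2, the ketamine minus saline changes were −0.04 for Crhbp and −0.14 for Crh, with no call. The array of ketamine 1 and 2 had 4.54% of its spots in areas that departed from the other arrays, against at most 0.499% on any other array, and no spot of a member lay in such an area.

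**Figure D3:**
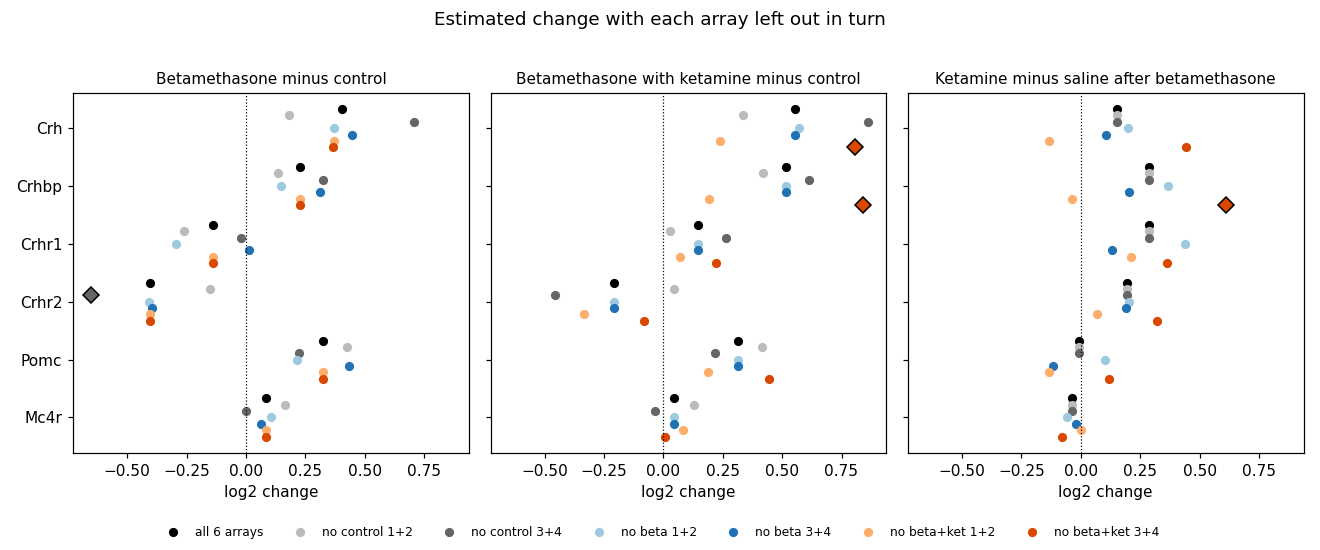
Estimated log2 change (x axis) of the 6 tested genes (y axis) in the 3 comparisons with all 6 arrays (black) and with each array left out in turn (colours). Diamonds mark an adjusted p under 0.05. Diamonds appear for Crhbp and Crh without the array of ketamine 3 and 4, and for Crhr2 without that of control 3 and 4.

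For the 6 tested probes, animals that shared an array were closer to each other in the median than the arrays of a group were. For Crhbp the median difference within an array was 0.13, and the 2 arrays of a group differed by a median of 0.19 and in the ketamine group by 0.65. For the 1-spot Crh probe these values were 0.12 and 0.55, and for Crhr2 0.07 and 0.25. The median between arrays exceeded the median within arrays for 6 of 6 tested probes. The 10-spot Crh probe went the other way, at 0.16 within arrays and 0.080 between them. The array was a random block in the test, with a correlation of 0.563 estimated over all genes.

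Crhr1 encodes the main CRH receptor of the cortex. Control animals had 7.94, 7.60, 7.93 and 8.07 (7.89 ± 0.20 SD, n = 4) and betamethasone animals 7.84, 7.96, 7.58 and 7.60 (7.74 ± 0.18 SD, n = 4). Ketamine animals had 8.11, 8.11, 8.05 and 7.86 (8.03 ± 0.12 SD, n = 4). All 3 groups overlapped, with the highest values in ketamine animals 1 and 2. The change was −0.14 (SE 0.16, interval −0.50 to 0.22, limma adjusted p = 0.799) for betamethasone minus control and 0.14 (interval −0.22 to 0.51, limma adjusted p = 0.693) for betamethasone with ketamine minus control. For ketamine minus saline it was 0.29 (interval −0.08 to 0.65, limma adjusted p = 0.906), the member with the smallest unadjusted p in that comparison (0.112). The sizes moved with the scaling: ketamine minus saline was 1.16 with processed signals, 1.14 with the 75th percentile and 0.73 with array medians, and betamethasone minus control was −0.65, −0.88 and −0.60. None of those was called. Betamethasone minus control was −0.073 without control 1 and −0.23 without control 2, and betamethasone with ketamine minus control was 0.052 without control 2.

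Crhr2 encodes the second CRH receptor, which also binds the urocortins. Its tested probe read 7.92, 8.08, 7.48 and 7.52 in control animals (7.75 ± 0.30 SD, n = 4), where 2 were well above background. It read 7.36, 7.34, 7.25 and 7.43 in betamethasone animals (7.35 ± 0.07 SD, n = 4), where none was. Ketamine animals had 7.66, 7.68, 7.37 and 7.46 (7.54 ± 0.15 SD, n = 4). Every betamethasone animal was below every control, and the control group split by array, with animals 1 and 2 high. The change for betamethasone minus control was −0.40 (SE 0.15, interval −0.73 to −0.08, limma adjusted p = 0.329), which was no call, and since the betamethasone level was not well above background in any animal, no fold is given. It was −1.35 with processed signals, −1.41 with the 75th percentile and −1.13 with array medians, also with no call. Less the median over all genes, these were −1.38, −1.21 and −1.21.

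Without the array of control 3 and 4 the Crhr2 change after betamethasone was −0.65 (limma adjusted p = 0.0397). It rested then on control 1 and 2 alone, which shared an array. Without that array it was −0.15, with no call. For betamethasone with ketamine minus control the change was −0.21 (interval −0.53 to 0.12, limma adjusted p = 0.532), and without the array of control 1 and 2 it was 0.04. For ketamine minus saline it was 0.20 (interval −0.13 to 0.52, limma adjusted p = 0.906), and nothing is read from its direction, since the probe was tested only because 3 ketamine animals passed the filter. The other Crhr2 probe lay between 7.27 and 7.41 in all 12 samples, and its groups overlapped in every comparison.

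Mc4r encodes the melanocortin receptor that controls appetite and energy balance. Control animals had 8.38, 8.36, 8.24 and 8.17 (8.29 ± 0.10 SD, n = 4) and betamethasone animals 8.21, 8.49, 8.41 and 8.38 (8.37 ± 0.12 SD, n = 4). Ketamine animals had 8.29, 8.30, 8.41 and 8.33 (8.33 ± 0.06 SD, n = 4). The groups overlapped throughout. The change was 0.08 (SE 0.12, interval −0.17 to 0.34, limma adjusted p = 0.840) for betamethasone minus control and 0.05 (interval −0.21 to 0.30, limma adjusted p = 0.876) for betamethasone with ketamine minus control. Ketamine minus saline gave −0.04 (interval −0.30 to 0.22, limma adjusted p = 0.973), so changes beyond about 0.34 to either side lie outside these intervals. In the deposited value table Mc4r was lower after betamethasone, at −0.64 (limma adjusted p = 0.0363), where the median of all genes was −0.51 and 6654 genes were called. Its change less that median was −0.13.

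Mc3r, the melanocortin receptor most abundant in the hypothalamus, lay between 7.19 and 7.33 in the 12 samples. Group means were 7.21 ± 0.02, 7.27 ± 0.04 and 7.29 ± 0.01 (SD, n = 4 each) for control, betamethasone and ketamine. No sample was well above background, so no fold change is given.

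**Figure D4:**
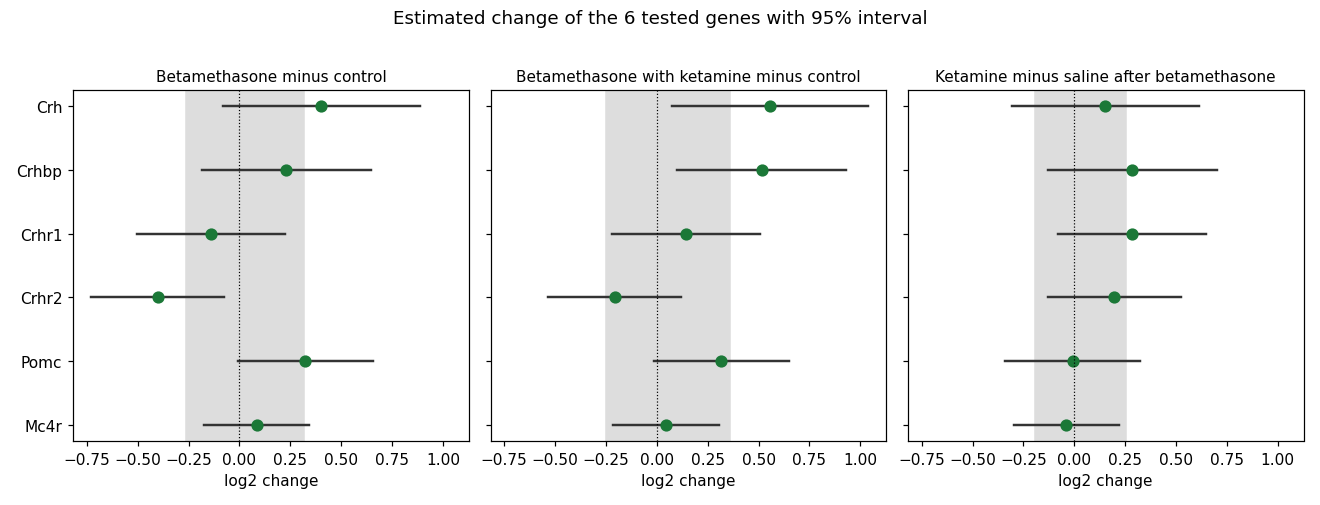
Estimated log2 change (x axis) of the 6 tested genes (y axis) with the 95% interval as a line, for the 3 comparisons. The grey band covers the 10th to the 90th percentile of the changes of all tested genes. The intervals that leave out 0 are those of Crhr2 for betamethasone minus control and of Crh and Crhbp for betamethasone with ketamine minus control, before adjustment for the number of genes.

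Other ligands, antagonists, receptors and accessory proteins of both pathways were taken as 13 genes, of which 12 had a probe. The ACTH receptor Mc2r, the ligand Ucn3 and the antagonist Asip were well above background in 0 of 12 samples, and 7 genes were in all 12. Of the 9 tested, none was called in any comparison, and the medians were 0.02, 0.10 and 0.03 for betamethasone, betamethasone with ketamine and ketamine minus saline. Agrp, a natural antagonist of Mc3r and Mc4r, was at 0.19 (SE 0.09, limma adjusted p = 0.456) for betamethasone minus control. Mrap, an accessory protein of the ACTH receptor, was at 0.37 (SE 0.24, adjusted p = 0.582), and Atrn, the attractin that aids agouti binding, at −0.18 (SE 0.13, adjusted p = 0.630). With ketamine against control the smallest p-values belonged to Atrnl1, a relative of Atrn, at 0.44 (adjusted p = 0.410), Agrp at 0.17 and Mrap at 0.37. Between ketamine and saline they belonged to Atrnl1 at 0.42, the CRH-family ligand Ucn2 at 0.09 and Atrn at 0.08 (adjusted p of at least 0.906 for these 3 genes).

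Enzymes and chaperones that cut, trim or degrade prohormones were taken as 9 genes, all 9 tested, and none was called. Estimates were above 0 for 8 of 9 in both comparisons with control, which share the same control animals on 1 slide. Medians were 0.17 for betamethasone and 0.30 for betamethasone with ketamine, beside 0.03 and 0.07 for all tested genes. In ketamine minus saline 4 of 9 were above 0 (median −0.04, beside 0.05 for all tested genes). The share of all genes above 0 was not counted. For betamethasone minus control the smallest p-values belonged to Pcsk1n, which encodes an inhibitor of prohormone convertase, at 0.53 (SE 0.30), the convertase Furin at 0.38 (SE 0.22) and Prcp, which degrades a melanocortin, at 0.20 (limma adjusted p = 0.539 to 0.565). Pcsk1, the convertase that releases ACTH from the Pomc product, was at 0.36 (SE 0.14, limma adjusted p = 0.324) for betamethasone with ketamine minus control. Cpe, the carboxypeptidase that trims the cut peptides, was at 0.34 (SE 0.17, adjusted p = 0.387) and Furin at 0.43 (adjusted p = 0.411). The ketamine minus saline estimates were 0.26 for Pcsk1, 0.21 for the amidating enzyme Pam and 0.18 for Cpe (adjusted p = 0.906 each).

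The receptors' shared downstream route through Gs, cyclic AMP and protein kinase A was taken as 32 genes, of which 30 were tested and none was called. The medians were −0.02, 0.13 and 0.08 in the same order. For betamethasone minus control the smallest p-values belonged to Rapgef2, an exchange factor for Rap, at −0.40 (SE 0.11, limma adjusted p = 0.204). Next were Arrb1, an arrestin that ends receptor signalling, at −0.31 (SE 0.10, adjusted p = 0.250) and Prkaca, a catalytic subunit of protein kinase A, at −0.25 (SE 0.08, adjusted p = 0.261). With ketamine against control, Arrb1 was at −0.30, Rapgef2 at −0.32 and the adenylyl cyclase Adcy2 at 0.41 (limma adjusted p = 0.275, 0.297 and 0.323). Between ketamine and saline they belonged to the regulatory subunits Prkar2b at −0.25 and Prkar1b at 0.54 and the cyclase Adcy8 at 0.25 (adjusted p = 0.906 each).

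The tissue label was checked against marker genes, of which none was called in any comparison. All 8 markers of cortical projection neurons and 9 of 10 of inhibitory interneurons, the cells that make most cortical Crh and Crhbp, were well above background in all 12 samples. The mean log2 level of the interneuron markers ran from 11.98 to 12.24 over control animals, 11.94 to 12.12 over betamethasone animals and 11.97 to 12.19 over ketamine animals, and the 3 ranges overlapped. In bulk tissue, fewer cells of a type and less RNA per cell cannot be told apart. For ketamine minus saline the interneuron markers with the smallest p-values were Calb2 at 0.36, Pvalb at −0.52 and Vip at 0.39 (limma adjusted p = 0.906 each). For betamethasone with ketamine minus control they were Npy at −0.32, Vip at 0.60 and Lhx6 at −0.23 (adjusted p = 0.346, 0.368 and 0.400), and for betamethasone minus control Sst at 0.26, Calb2 at −0.26 and Npy at −0.16 (adjusted p = 0.519, 0.617 and 0.710). Of 9 hypothalamic markers, 4 were well above background in all 12 samples (Avp, Oxt, Hcrt and Agrp) and 2 in none (Trh and Sim1). Of 9 pituitary markers with a probe, 3 were in all 12 (Lhb, Tbx19 and Pitx1) and 3 in none (Gh1, Prl and Tshb). Of 6 choroid plexus markers, 2 were in all 12. Of the choroid plexus genes, Aqp1 was at 0.58 (SE 0.21, limma adjusted p = 0.311) and Ttr at −1.04 (SE 0.78, adjusted p = 0.656) for betamethasone minus control, and at 0.42 and −0.97 for betamethasone with ketamine minus control (adjusted p = 0.386 and 0.575). Mean marker levels ran from 7.91 to 8.03 over all samples for the hypothalamic list and from 7.98 to 8.10 for the pituitary list. Their part in the values of Pomc and Crh was not tested.

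For each gene detected in all 12 samples, the genes whose values followed it most closely across samples were listed, after the group mean was taken from each value. For Pomc they were Pole3 (Pearson r = 0.982), Ergic2 (0.977) and Zdhhc16 (0.932), over 12 samples. For Crhbp they were Snx6 (0.978), Foxd2 (0.958) and Ubxn4 (0.956), and for Mc4r Tgm1 (0.924), Pcdhga9 (0.911) and Nipsnap3b (0.903). For Crh, over the 11 samples with a value, they were Pik3r4 (0.971), Fam50a (0.959) and Klhl42 (0.954). Those are the highest of 18679 genes, the samples share arrays in pairs, and the values are given as a description. No other member was among the 3 genes closest to a member.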

How the data were processed

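Channel signals and local backgrounds were deposited as intensity values in scanner units, from Feature Extraction 11.5.1.1 (control slide) and 11.0.1.1 (other slide), per the file headers. Version 10.7.3.1 is given in the submitters' processing notes. The deposited value table holds a ratio: each column has a median of 1, and it was used only as an alternative, on the log2 scale. Its columns of control 1 and 2 matched the scanner data of control 3 and 4 and the reverse, which exchanges names within 1 group only. Log2 values were computed here from the deposited intensity values, not taken from the authors.

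Mean signals were corrected with normexp (offset 50), normalised by loess within and Aquantile between arrays, outlier and control spots were left out, and each channel was treated as 1 sample. Repeat spots were averaged. RefSeq tables gave a gene name through the accession for 18355 of the 30367 probes, through the symbol for 2758 and through a synonym for 422, and 8832 kept the file's name. To be tested, a probe had to be well above background for 3 animals of any group, and each gene was tested by its brightest such probe (18679 genes). A gene needed 3 values per group in the fit of all 12 samples. The fit was limma 3.58.1 (R 4.3.3, statmod 1.5.0) over all 12 samples, with dye as a term, the array as a random block and 2-sided Benjamini-Hochberg adjusted p-values. The pipeline was checked on simulated data.

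Replicate numbers were not used to pair animals across groups, since the values showed no sign of pairing: in 12 same-numbered pairs the correlation of deviations was −0.13 to 0.04. With 4 animals per group and no litter given, that check cannot exclude a pairing. The genes named were all members with every probe, from each pathway list the genes called or else the 3 with the smallest p in each comparison, and the 3 genes most like each member detected in all samples. Interneuron and choroid plexus markers were named after their values were seen. The members and lists were chosen with earlier results of these data known. Alternatives covered the signal, scaling, filter, probe choice, blocks, damaged areas, and samples and arrays left out.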

Additional observations from a re-analysis of the deposited data

Results flagged for a closer look

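In 26 groups of 4 samples, 1 for each probe and group with all values, the sample farthest from the others was compared with the range of its group at the 95% level, which flags about 1 in 20 groups by chance. The 10-spot Crh probe in betamethasone 3 was at 9.17, against 9.75 for the nearest animal of its group, and the gap was 0.985 of the group's range. The other Crhr2 probe in betamethasone with ketamine 4 was at 7.32, against 7.39 for the nearest, with a gap of 0.925 of the range, and that spot belonged to a group in which 1 of 4 animals was well above background. The other Crhr2 probe, which took no part in the comparisons, was well above background in 1 sample of the exposed groups and in 0 control samples.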

How the results depend on the processing

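Over 31 alternative settings, 0 members were called in 29 for betamethasone minus control and in 30 for each of the other comparisons. Of 546 estimates for members, 511 kept their direction and their side of the threshold, 31 turned direction and 4 passed it in their own direction. Of those that turned, Mc4r in the deposited value table also passed, so 5 passed in all. The estimates that turned were mostly close to 0, and the cause was not tested. Processed signals with quantile normalization gave Mc4r −0.027 after betamethasone, and Crh −0.035 and Mc4r 0.070 for ketamine minus saline. Scaling to the 75th percentile, where the medians over all genes were −0.20, 0.31 and 0.15 for betamethasone, ketamine minus saline and both against control, gave Mc4r −0.39 after betamethasone, and Pomc 0.055 and Mc4r 0.60 for ketamine minus saline. Loess with array medians, where the ketamine minus saline median was −0.10, gave Mc4r −0.11 after betamethasone, and Crh −0.28, Crhbp −0.0026 and Mc4r 0.20 for ketamine minus saline. The deposited value table, with medians of −0.51, 0.08 and −0.43, gave Crh −0.016, Crhbp −0.29, Pomc −0.24 and Mc4r −0.64 after betamethasone, where 1 member passed (Mc4r). It gave Pomc 0.037 and Mc4r 0.049 for ketamine minus saline, and Pomc −0.21 and Mc4r −0.59 for both exposures.

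Without the array of control 1 and 2, Crhr2 was at 0.043 for both exposures against control. Without that of control 3 and 4, Mc4r was at −0.037 there, and Crhr2 after betamethasone was at −0.65 and was the 1 member called. Without that of betamethasone 1 and 2, Pomc was at 0.10 for ketamine minus saline, and without that of betamethasone 3 and 4, Crhr1 was at 0.014 after betamethasone. Without that of ketamine 1 and 2, ketamine minus saline was −0.14 for Crh, −0.039 for Crhbp and 0.00022 for Mc4r. Without that of ketamine 3 and 4 it was 0.12 for Pomc and 0.61 for Crhbp, the 1 member called there, and 2 were called for both exposures, Crh at 0.81 and Crhbp at 0.84. Leaving out single samples called 0 members, and moved Pomc between −0.069 and 0.043 and Mc4r between −0.11 and 0.028 for ketamine minus saline.

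Counts over all genes moved more. For betamethasone minus control (46 genes) they were 91 with processed signals, 0 with the 75th percentile and with array medians, 79 with no filter, 30 with detection in all 12 samples, 6654 in the value table, 979 with no array block, 3 with array means, 243 with only the 2 groups compared and 94 without damaged areas. For both exposures against control (17 genes) they were 61, 0, 0, 39, 4837, 777, 1, 2 and 27 for those settings, other than detection in all samples. For ketamine minus saline (0 genes) processed signals gave 3, no filter 1 and no array block 1. Without the array of control 1 and 2 the counts were 289 and 228 for betamethasone and for both exposures, without control 3 and 4 364 and 404, without betamethasone 1 and 2 19 and 4, and without betamethasone 3 and 4 21 and 3. Without ketamine 1 and 2 they were 493 and 107, and without ketamine 3 and 4 414 and 3101. Ketamine minus saline gave 12, 16, 28 and 2291 for those last 4 arrays. Leaving out single samples gave 3 to 73 genes for betamethasone and 5 to 27 for both exposures: 14, 3, 6 and 11 without betamethasone 1 to 4, 8 and 14 without control 1 and 3, and 73 without ketamine 1. For both exposures it was 8, 7 and 7 without betamethasone 2 to 4, 5 without control 1 or 3, 26 without control 4, and 11 and 27 without ketamine 2 and 1. A replicate block, although the values showed no sign of pairing by number, gave 28, 0 and 11 genes, and 0 of 12 samples correlated best with a sample of its own number.

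Crhr1 and Crhr2 had no value with detection required in all 12 samples, nor in the value table, where entries of theirs were empty in at least 2 samples of a group. The dim signals of Crhr1, Crhr2 and Mc3r limited what could be measured for the receptors.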
